A study of Rattus norvegicus with 10 samples.

Results

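The enzymes described here are those that cut, trim and cap prohormones in the secretory pathway. They were given by 10 gene symbols, namely Pam, Pcsk1, Pcsk2, Pcsk5, Pcsk6, Pcsk7, Furin, Cpe, Cpd and Qpct. Every probe set whose platform annotation gave exactly 1 of these symbols was taken, which found 14 probe sets of 9 genes among the 14217 genes with a single symbol on the array. Pcsk1 had no such probe set and was not analysed here. The samples were RNA pools of the paraventricular nucleus of the hypothalamus from male Sprague Dawley rats aged 10 to 12 weeks, each pool made from 5 animals and hybridised to 1 Affymetrix Rat Genome 230 2.0 array. Per the design text the pools came from different animals, so the spread between arrays is that between pools. There were 5 pools from rats dehydrated for 3 days and 5 pools from control rats, which the labels describe no further. The series' design text speaks of the supraoptic nucleus instead, and the tissue given on every sample was used. All 5 genes fixed as markers of the nucleus (Avp, Oxt, Crh, Trh and Sim1) had signal above the level filter. In dehydrated pools their mean signals were 4956.5, 4860.7, 320, 651 and 79.2 in that order. In control pools they were 3531.4, 4089.8, 282, 615 and 62.1.

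Neuropeptides are made as larger precursors. In the granules of neurons and endocrine cells, the proprotein convertases Pcsk1 and Pcsk2 cut precursors after pairs of basic residues, carboxypeptidase E (Cpe) removes the basic residues left at the C terminus, and peptidylglycine alpha-amidating monooxygenase (Pam) turns a C-terminal glycine into the amide that vasopressin, oxytocin and the releasing hormones Crh and Trh need for activity. Qpct closes an N-terminal glutamine into pyroglutamate, as in Trh. Furin, Pcsk7 and carboxypeptidase D (Cpd) act mainly in the trans-Golgi network on proteins of the constitutive pathway, and Pcsk5 and Pcsk6 cut growth factor precursors and other secreted proteins. The paraventricular nucleus is a main site of this chemistry in the brain, since its magnocellular neurons ship large amounts of vasopressin and oxytocin to the posterior pituitary, and vasopressin is released during water deprivation.

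The promoter windows of 3 enzymes are shown because they stand for the successive steps of cutting, trimming and amidating, and because they are the members of the 7 with a RefSeq promoter entry that hold the core letters of a cyclic AMP response element, TGACG. Each window runs from 250 bases before to 50 bases after the annotated start, in build GRCr8, and all 3 are on the plus strand. Capitals mark TGACG or its reverse complement. The Pam window is chr9:105570118-105570417, that of Pcsk2 is chr3:151333688-151333987 and that of Cpe is chr16:29796457-29796756.
Pam: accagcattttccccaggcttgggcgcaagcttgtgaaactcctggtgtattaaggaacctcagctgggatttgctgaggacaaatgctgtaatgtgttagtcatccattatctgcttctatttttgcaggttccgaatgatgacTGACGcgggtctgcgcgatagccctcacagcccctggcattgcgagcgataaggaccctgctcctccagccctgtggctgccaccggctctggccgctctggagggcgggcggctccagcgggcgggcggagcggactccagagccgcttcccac
Pcsk2: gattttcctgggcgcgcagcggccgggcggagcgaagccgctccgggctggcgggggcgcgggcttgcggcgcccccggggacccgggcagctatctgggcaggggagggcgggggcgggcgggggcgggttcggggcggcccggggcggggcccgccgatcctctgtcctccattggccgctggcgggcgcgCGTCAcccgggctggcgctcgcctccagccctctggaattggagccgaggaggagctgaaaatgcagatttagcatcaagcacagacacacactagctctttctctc
Cpe: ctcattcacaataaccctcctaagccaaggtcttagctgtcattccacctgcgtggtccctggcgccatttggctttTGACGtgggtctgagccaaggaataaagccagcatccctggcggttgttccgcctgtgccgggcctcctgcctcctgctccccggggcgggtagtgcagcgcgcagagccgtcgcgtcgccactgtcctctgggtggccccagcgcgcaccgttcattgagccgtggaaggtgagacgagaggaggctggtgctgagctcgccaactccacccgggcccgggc

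TGACG, searched on both strands, began 105 bases before the start in Pam, 57 in Pcsk2 and 173 in Cpe, and it occurred in 21.2% of all 33469 promoter windows of the same length. The full palindrome TGACGTCA, of which TGACG is a part, occurred in 0 of the 7 enzyme windows and in 1.83% of all windows, and the AP-1 site TGANTCA in 0 of the 7 and in 7.33%. The GC box GGGCGG was found in 5 of the 7 windows, those of Pam, Pcsk2, Pcsk5, Pcsk6 and Cpe, against 33.1% of all windows. The Pam window held 4 copies of it, which began between 2 bases before and 19 bases after the start, and the Pcsk2 window held 7. These are matches of letters and no binding was measured.

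Among the enzymes, the signal of Pam was higher in dehydrated pools. Its bright probe set 1367687_a_at had signals of 1357.1, 1337.4, 1374.4, 1344.5 and 1239.2 in dehydrated pools, against 1086.9, 1174.5, 1119.8, 1108.8 and 983.4 in control pools. All 5 dehydrated values lay above all 5 control values, and the lowest dehydrated pool and the highest control pool were replicate 5 and replicate 2 of their groups. The mean was 1330.5 ± 52.9 in dehydrated and 1094.7 ± 70.1 in control pools (SD, n = 5 each). On the log2 scale after adding a pseudocount of 3.72 the difference was 0.28 ± 0.06 (standard error), a fold of 1.22 with a 95% interval of 1.12 to 1.32, and it passed in limma (adjusted p = 0.0313 over 18629 probe sets). The rise was small beside others. Of the 108 probe sets that changed, 3 had a smaller absolute difference, and of the 74 that rose, 2 had a smaller one.

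The Pam call sat close to the threshold of 0.05. It was lost with any of 6 arrays left out, with an adjusted p of 0.0742, 0.0968 and 0.0824 without dehydrated replicates 1, 3 and 4, and of 0.0729, 0.0647 and 0.0659 without control replicates 1, 3 and 4. The difference itself lay between 0.24 and 0.31 in all 10 fits with 1 array left out. The plot of the Pam difference under each setting shows the size of the difference and the p value side by side.

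**Figure D1:**
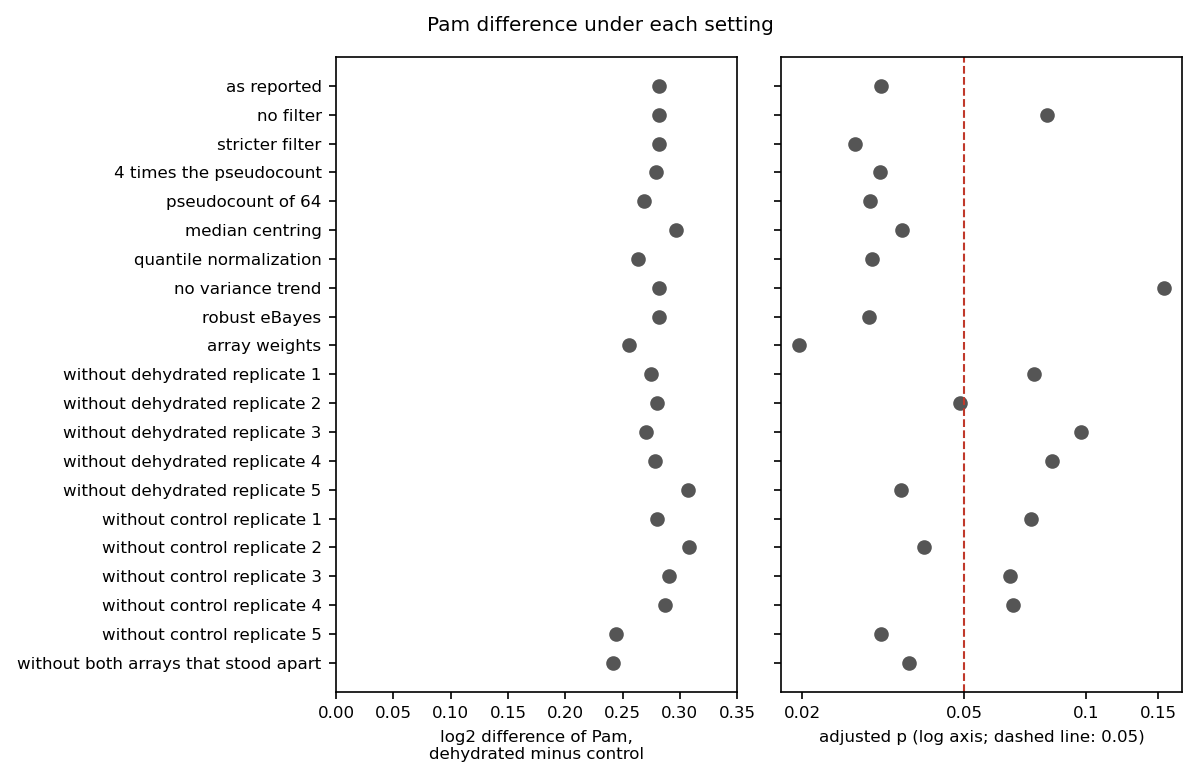
Log2 difference of Pam (probe set 1367687_a_at), dehydrated minus control, on the left, and its adjusted p in limma on a log axis on the right, for the values as reported and for each alternative, 1 setting per row. The difference stays between 0.24 and 0.31, whereas the adjusted p runs from 0.0196 with array weights to 0.155 without the variance trend, on either side of the dashed line at 0.05.

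Control replicate 5 stood apart from the other arrays, at 37.2 on the first principal component (20.7% of the variance) where the others lay from -14.4 to 3.69. The number in its sample title was also apart from those of the other arrays. Its Pam signal was the lowest of the 10 pools, and without it the difference was 0.24 (adjusted p = 0.0312). Dehydrated replicate 2 correlated no better with its own group (mean r = 0.979) than with the controls (mean r = 0.979), and without both arrays Pam differed by 0.24 (adjusted p = 0.0365). The remaining title numbers ran in 1 block per group. The labels do not say what these numbers stand for. If they follow array batch, batch and group cannot be told apart. Of 4 pituitary genes 1 was tested, and all 4 were highest in dehydrated replicate 1, with a Prl signal of 210.2 against 0.7 to 7.6 in the other dehydrated pools and 0.7 to 1.5 in control pools, and a Gh1 signal of 389.4 against 3.0 to 27.3 and 8.2 to 28.4. Pomc and Tshb had 11.3 and 41.9 there. Pam had 1357.1 in that pool, within the range of the other dehydrated pools, and differed by 0.27 without it.

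Some markers of other cell types also differed between the groups in the same pools. Their counts stand beside 0.58% of all tested probe sets called in either direction, 12.7% with an unadjusted p under 0.05 and 48.8% with a positive difference. Of 8 oligodendrocyte genes 7 were tested, and all 7 had a negative difference. In limma 6 of them had an unadjusted p under 0.05 and 1 passed the threshold (Ermn, log2 -0.63, adjusted p = 0.0255). The groups did not overlap for 3 of the 7, against 3.36% of all tested probe sets. The summed signal of the 7 ran from 6619 to 6834 in dehydrated pools and from 7064 to 8525 in control pools. Of the 6 astrocyte genes, all tested, 5 had a negative difference and 0 passed in limma, with 2 at an unadjusted p under 0.05 and Gfap at -0.38 (adjusted p = 0.0553). Their summed signal ran from 10773 to 12059 in dehydrated and from 11181 to 12527 in control pools. Of 6 microglial genes 4 were tested, 3 of them negative and 0 past the threshold in limma, with 2 at an unadjusted p under 0.05 and a median of -0.13. Aif1 differed by -0.42 (adjusted p = 0.0880) and Ctss, which made up most of the summed signal of 1718 to 2209 in dehydrated and 1745 to 2043 in control pools, by 0.16 (0.373). The 6 endothelial genes, 5 of them positive and 0 past the threshold in limma with 1 at an unadjusted p under 0.05, summed to 972 to 1067 in dehydrated and 811 to 1047 in control pools. Of 6 genes of the neighbouring hypothalamus 4 were tested, and 0 passed in limma, with 3 at an unadjusted p under 0.05 and a median log2 difference of -0.58. Those 3 were negative. Hcrt, the orexin precursor, had signals of 282.3, 803.1, 235.1, 958.3 and 1027.0 in dehydrated pools, against 689.2, 2508.0, 2098.6, 2026.6 and 609.3 in control pools (log2 -1.28, adjusted p = 0.233). Hdc, which makes histamine, ran from 22.2 to 31.5 in dehydrated and from 37.1 to 74.9 in control pools, without overlap (log2 -0.67, adjusted p = 0.135), and Nkx2-1 differed by -0.50 (0.205). Pmch, the brightest of the 4, differed by 0.02 (0.962), and the summed signals were 3276 to 5932 in dehydrated and 4059 to 6914 in control pools. Of 4 red cell genes 2 were tested, Hbb at -0.67 (adjusted p = 0.0305) and Alas2 at -0.38 (0.477), with summed signals of 304 to 568 in dehydrated and 562 to 769 in control pools. No marker gene measured was listed at 0 on any array. The 5 marker genes of the nucleus summed to 9006 to 12139 in dehydrated and 7482 to 9970 in control pools, most of it from Avp and Oxt. All 5 had a positive difference, with a median of 0.24. In limma 0 of them passed and 2 had an unadjusted p under 0.05. Sim1 differed by 0.35 (adjusted p = 0.414). The part of these shifts in the Pam difference was not tested, and in bulk tissue more cells of a type and more RNA per cell cannot be told apart.

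Across the 9 enzymes with a tested probe set, 1 rose, 0 fell and 8 did not pass in limma, beside 0.397% of all 18629 tested probe sets called higher, 0.183% called lower and 0.58% called in either direction. Before adjustment, 1 of the 9 (Pam) had a p under 0.05, against 12.7% of all tested probe sets. The groups did not overlap for 1 of the 9, Pam again, against 3.36% of all tested probe sets in either direction and 1.94% with the dehydrated pools higher. All 9 fitted differences were positive, with a median of 0.04, where 48.8% of all tested probe sets were positive and their median was -0.0048. Of those 9 signs, 5 turned under at least 1 alternative, those of Pcsk2, Pcsk5, Pcsk6, Cpd and Cpe.

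**Figure D2:**
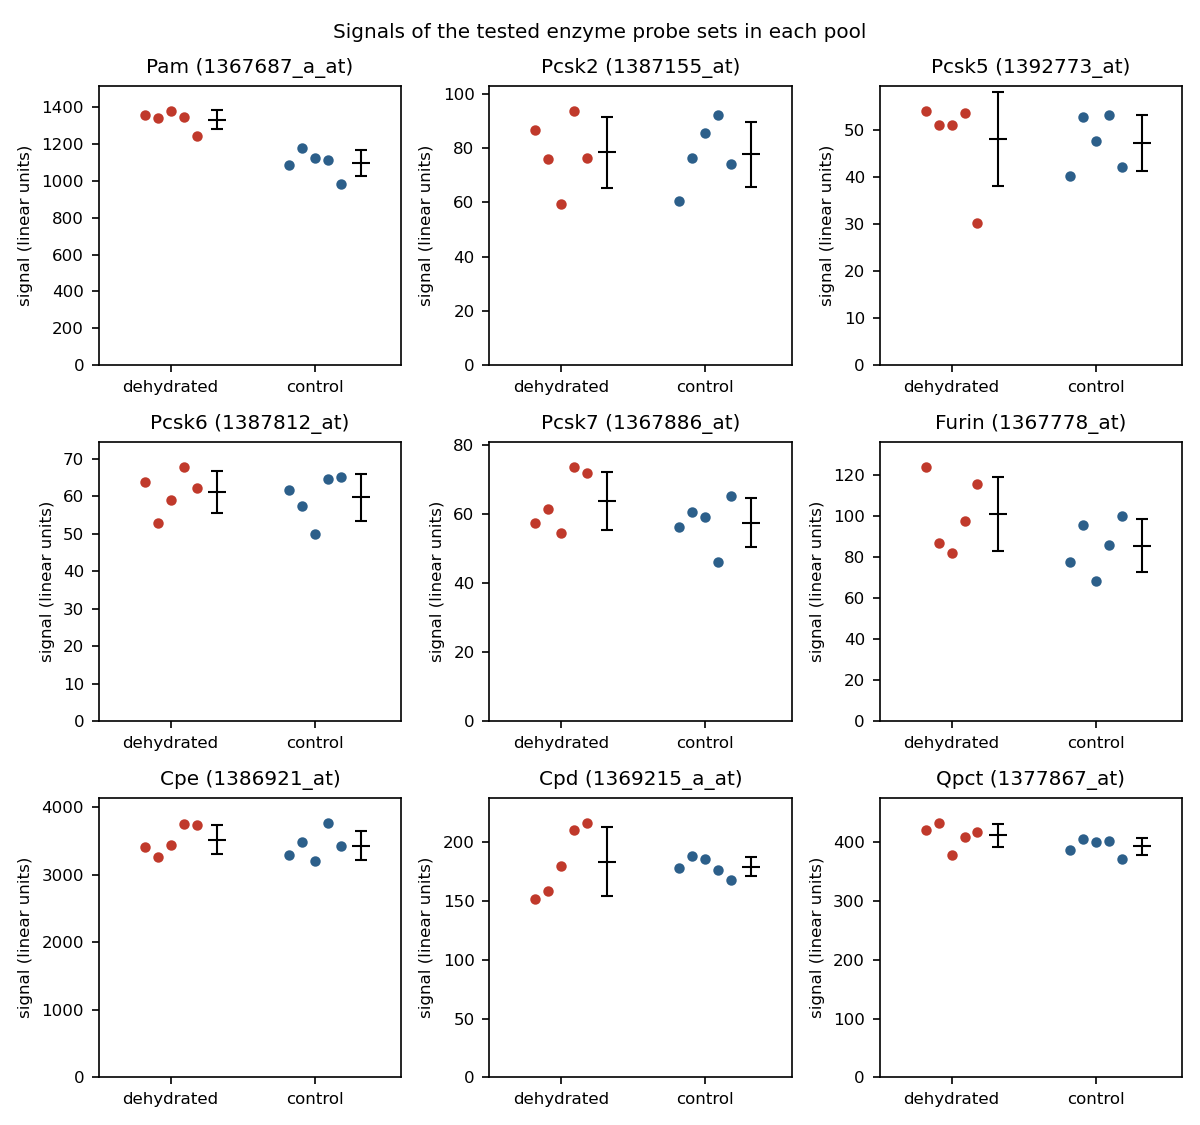
Linear signal (y axis, from 0) of the 9 tested enzyme probe sets in each pool, dehydrated (red) left of control (blue), 1 point per pool in the order of the replicate numbers, with mean and SD of 5 pools as a black bar. The groups are separate for Pam and overlap for the other 8.

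The granule convertase Pcsk2 showed no difference beyond its spread. Its signals were 86.6, 76.1, 59.3, 93.5 and 76.4 in dehydrated pools, against 60.6, 76.5, 85.5, 92.1 and 74.3 in control pools. The groups covered almost the same range, from 59.3 to 93.5 and from 60.6 to 92.1, and the log2 difference was 0.01 with a 95% interval of -0.27 to 0.29 (limma, adjusted p = 0.985). The coefficient of variation between pools was 16.5% in dehydrated and 15.4% in control pools, so that a rise of the size seen for Pam would lie within this interval.

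Cpe, which trims the basic residues that the convertases leave, was measured more tightly. Its signals were 3409.7, 3270.2, 3450.0, 3753.8 and 3744.4 in dehydrated pools, against 3290.0, 3481.6, 3210.6, 3764.3 and 3429.5 in control pools. The groups overlapped throughout, and the highest value was that of a control pool. The log2 difference was 0.04 with a 95% interval of -0.08 to 0.15 (limma, adjusted p = 0.818). Cpe lay at 59.7% to 71.7% of the highest signal on its array, a range in which scanner signals can be compressed.

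Qpct, the enzyme that forms N-terminal pyroglutamate, had signals of 420.2, 432.2, 378.8, 409.7 and 417.3 in dehydrated pools, against 386.4, 405.7, 400.8, 402.8 and 370.9 in control pools. In 4 of the 5 dehydrated pools the signal lay above every control value, and replicate 3 lay below all but 1 of them. The log2 difference of 0.06 had a 95% interval of -0.06 to 0.19 and did not pass (limma, adjusted p = 0.693). It stayed positive in all 20 alternatives run for it.

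Furin, the convertase of the trans-Golgi network, had the second largest fitted difference among the tested enzymes. Its signals were 123.6, 86.8, 82.1, 97.3 and 115.4 in dehydrated pools, against 77.4, 95.4, 68.4, 85.8 and 100.1 in control pools. Replicates 1 and 5 of the dehydrated pools lay above the control range and the other 3 within it. The log2 difference was 0.23 with a 95% interval of -0.04 to 0.50 and did not pass (limma, adjusted p = 0.474, and 0.216 to 0.686 over the alternatives).

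Pcsk7, another convertase of the trans-Golgi network, had signals of 57.6, 61.6, 54.6, 73.6 and 71.9 in dehydrated pools, against 56.4, 60.6, 59.3, 46.2 and 65.3 in control pools. Replicates 4 and 5 of the dehydrated pools lay above all controls. The log2 difference was 0.14 with an interval of -0.12 to 0.40 (limma, adjusted p = 0.665).

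Cpd, the Golgi carboxypeptidase, differed more in spread than in level. The signals of probe set 1369215_a_at were 151.9, 158.0, 179.7, 210.3 and 215.8 in dehydrated pools, against 177.8, 188.0, 185.4, 176.3 and 167.7 in control pools. Of the dehydrated pools 2 lay below and 2 above the whole control range, and the coefficient of variation was 16.0% in dehydrated against 4.49% in control pools, a difference that was not tested. The log2 difference of the means was 0.02 with an interval of -0.19 to 0.23 (limma, adjusted p = 0.955).

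Pcsk5 and Pcsk6 cut growth factor precursors and other secreted proteins, and neither passed. Pcsk6 ran from 52.8 to 67.7 in dehydrated pools, against 50.0 to 65.2 in control pools, with a log2 difference of 0.03 and an interval of -0.20 to 0.27 (limma, adjusted p = 0.930). Pcsk5 (probe set 1392773_at) had signals of 53.9, 51.1, 51.1, 53.5 and 30.3 in dehydrated pools, against 40.1, 52.8, 47.7, 53.1 and 42.1 in control pools. Dehydrated replicate 5 was the lowest of the 10 pools, and the log2 difference was 0.0048 (interval -0.32 to 0.33, limma, adjusted p = 0.992). Without that pool it was 0.15, the highest of the fits with 1 array left out.

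The other 5 probe sets, of Pam, Pcsk5 and Cpd, had a mean signal under the filter of 24.1 and were not tested with the rest. Their signals ran from 0.4 to 19.3 over all pools. Pam probe set 1370502_at had 11.4, 15.3, 10.7, 1.3 and 19.3 in dehydrated pools, against 1.6, 12.3, 2.7, 3.6 and 9.5 in control pools, and 1370689_at had 1.6 to 8.2 against 0.4 to 8.0. The groups overlapped in all 5 dim probe sets. In the fit without a filter the log2 difference was 0.64 for 1370502_at (interval -0.24 to 1.51, adjusted p = 0.613) and 0.14 for 1370689_at (-0.54 to 0.83, adjusted p = 0.906), so the rise of Pam rests on 1 of its 3 probe sets. The 2 dim probe sets of Pcsk5 differed by 0.25 (1393467_at) and 0.08 (1388214_at), and that of Cpd by -0.21, with adjusted p from 0.800 to 0.893. In that fit 0.206% of all 31042 probe sets were called, and 0 of the 14 enzyme probe sets, Pam 1367687_a_at having an adjusted p of 0.0800 (limma). Before adjustment 1 of the 14 had a p under 0.05. The share of all 31042 with such a p was not computed, so this count has no background.

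**Figure D3:**
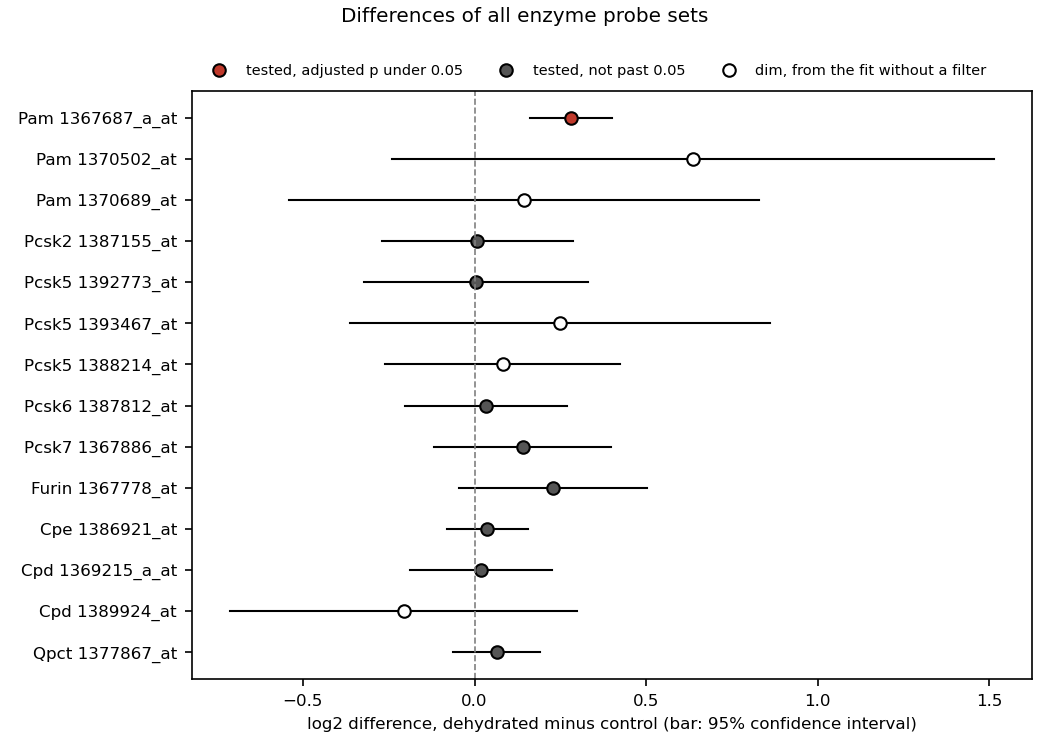
Log2 difference, dehydrated minus control, of all 14 enzyme probe sets (x axis) with its 95% interval as a bar, 1 probe set per row. Pam 1367687_a_at (red) has an interval of 0.16 to 0.40, the intervals of the other 8 tested probe sets (grey) include 0, and those of the 5 dim ones (open, from the fit without a filter) are mostly wider.

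Genes that work with these enzymes were read from the same fit, with the brightest probe set standing for each gene. Of 50 tested genes in these lists 2 rose, 0 fell and 48 did not pass, with a median log2 difference of 0.04, beside 0.397% called higher and a median of -0.0048 over all tested probe sets. The 2 that rose were peptide precursors. Pdyn, which encodes prodynorphin, a substrate of Pcsk2, had signals of 679.7, 718.4, 819.7, 792.4 and 691.5 in dehydrated pools, against 389.4, 451.7, 458.1, 497.0 and 320.2 in control pools, a log2 difference of 0.81 ± 0.10 (limma, adjusted p = 5.7e-04). Vgf, a granule precursor cut by the convertases, had 1029.7, 941.1, 956.2, 905.1 and 1025.6 in dehydrated pools, against 561.1, 655.3, 616.4, 675.7 and 645.0 in control pools, a log2 difference of 0.62 ± 0.06 (limma, adjusted p = 6.2e-05). The groups were separate for both genes, and both differences were larger than that of Pam.

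The 26 peptide precursor genes gave 23 tested, of which 2 rose, 0 fell and 21 did not pass, beside 0.397% of all tested probe sets called higher. Of the 23, 16 were positive, against 48.8% of all tested probe sets, 8 had an unadjusted p under 0.05, against 12.7%, and the median was 0.08. Avp, the vasopressin precursor, whose product Pam amidates, differed by 0.50 ± 0.11 without passing (limma, adjusted p = 0.0504), and Oxt, the oxytocin precursor, by 0.24 ± 0.08 (adjusted p = 0.218). In dehydrated replicate 4 Avp had 5698.1 and Oxt 5499.3, where the highest signal on the array was 6284.2. In control replicate 4 they had 3934.1 and 4316.6, where the highest was 5330. As said for Cpe, signals this high can be compressed. Cck differed by 0.70 (adjusted p = 0.0665), Sst by 0.50 (0.133), Bdnf by 0.42 (0.187) and Ghrh by -0.27 (0.448), none of them past the threshold. Apln differed by -0.29 (adjusted p = 0.198) and was the only negative gene among the 8 with an unadjusted p under 0.05. The Avp call lay on either side of the threshold. It was made in 8 of 20 alternatives, among them the stricter filter (0.0473), 4 times the pseudocount (0.0467), a pseudocount of 64 (0.0443) and median centring (0.0448). The fits without dehydrated replicate 2 (0.0172) or control replicate 5 (0.0132) also made it. It was not made without a filter (limma, adjusted p = 0.146), without the variance trend (0.169) or under quantile normalization (0.125). Under quantile normalization the Avp difference was 0.34 and that of Oxt 0.09 (limma, adjusted p = 0.423). Cck passed without dehydrated replicate 5 (0.0184). Vip, Pomc and Gnrh1 were under the level filter.

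In the 4 remaining lists, counts of positive members and of those with an unadjusted p under 0.05 stand beside 48.8% and 12.7% of all tested probe sets. The 4 convertase partners were all tested, with 0 past the threshold in limma, 0 with an unadjusted p under 0.05, 2 positive and 2 negative, and a median of 6.4e-04. Pcsk1n, the precursor of a Pcsk1 inhibitor, had 1918 ± 151 in dehydrated and 1786 ± 273 in control pools (log2 0.11, adjusted p = 0.609). Scg5, which encodes 7B2, the binding protein of Pcsk2, had 2135 ± 111 and 2070 ± 70.8 (log2 0.04, adjusted p = 0.760). Pacs1, a sorting protein of Furin, differed by -0.34 (adjusted p = 0.485) and Pacs2 by -0.04 (0.872).

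Pam needs copper and ascorbate, and its cytosolic tail binds trafficking proteins. Of 8 genes that supply or bind it, 6 were tested, with 0 past the threshold in limma, 0 with an unadjusted p under 0.05, 3 positive and 3 negative, and a median of 0.03. The copper chaperone Atox1 differed by 0.06 (adjusted p = 0.722), the copper pump Atp7a by 0.10 (0.741), Kalrn, which binds the tail of Pam, by 0.13 (0.738), and cytochrome b561 (Cyb561), which brings electrons to granule ascorbate, by -0.06 (0.756).

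Of 11 other processing enzymes 8 were tested, with 0 past the threshold in limma, 1 with an unadjusted p under 0.05, 5 positive and 3 negative, and a median of 0.06. The member with that p was cathepsin L (Ctsl), a cysteine protease of lysosomes that also cuts prohormones in secretory vesicles. Ctsl probe set 1370244_at had signals of 483.0, 592.4, 550.7, 516.4 and 483.9 in dehydrated pools, against 389.8, 442.1, 411.8, 440.7 and 447.0 in control pools. The groups did not overlap, and the log2 difference of 0.30 ± 0.07 did not pass (limma, adjusted p = 0.0677, and 0.0293 to 0.174 over the alternatives). The carboxypeptidase genes Cpm, Cpxm1 and Cpn1 differed by -0.28, 0.29 and 0.18 (adjusted p = 0.415, 0.471 and 0.665).

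Of 14 peptide-degrading enzymes 9 were tested, with 0 past the threshold in limma, 1 with an unadjusted p under 0.05, 2 positive and 7 negative, and a median of -0.06. Angiotensin-converting enzyme (Ace) had signals of 52.8, 45.8, 54.3, 63.4 and 46.8 in dehydrated pools, against 38.4, 40.2, 43.9, 33.1 and 33.4 in control pools, with separate groups and a log2 difference of 0.44 that did not pass (limma, adjusted p = 0.157). Pgpep1, which removes N-terminal pyroglutamate, differed by -0.23 (adjusted p = 0.434), the Trh-degrading enzyme Trhde by -0.23 (0.552) and Ece2 by -0.13 (0.569).

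**Figure D4:**
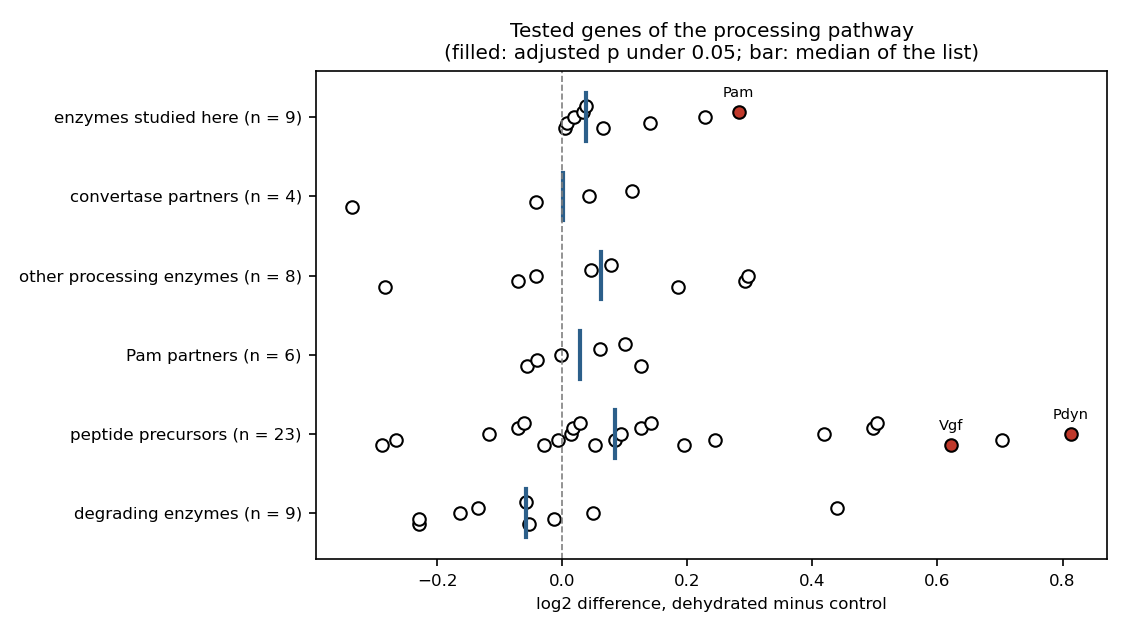
Log2 difference, dehydrated minus control (x axis), of each tested gene in the enzyme set and in 5 groups of related genes, 1 point per gene, filled where the adjusted p in limma was under 0.05, with the median of each group as a blue bar. Pam, Vgf and Pdyn are the filled points, and the medians lie between -0.06 and 0.08.

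The genes whose pattern over the 10 pools was most like that of Pam were found among 13585 tested probe sets of other genes with 1 symbol, by Pearson correlation of log2 values. The first 5 were Dclk1, a doublecortin-like kinase (r = 0.964), Ctsl through its probe set 1370245_at (0.963), Zranb2 (0.962), Pdyn (0.958) and Arhgap32 (0.954). Without control replicate 5, and with the group means left in, r was 0.95, 0.94, 0.94, 0.93 and 0.98 in the same order. After the group means were taken out over all 10 pools, r was 0.84, 0.87, 0.86, 0.77 and 0.88. These values are a description of 10 arrays and share each array's scaling. The 5 genes were picked by r on the same arrays, which also favours a high r with the group means taken out. That r was not computed without control replicate 5. Apart from those with the group means taken out, the r values contain the group difference by which all 5 were higher in dehydrated pools. Ctsl 1370245_at had signals of 196.3, 188.7, 203.2, 206.7 and 177.9 in dehydrated pools, against 149.2, 164.5, 167.9, 168.0 and 135.9 in control pools, so that its lowest pool in each group was replicate 5, as for Pam. The brighter Ctsl probe set 1370244_at did not share this. Its highest control pool was replicate 5 (447.0), and its lowest dehydrated pool was replicate 1 (483.0). Among the other enzymes the correlation with Pam was 0.57 for Qpct, 0.33 for Pcsk5, 0.29 for Furin and between -0.05 and 0.17 for the remaining 5. After the group means were taken out it was 0.33 for Qpct, 0.72 for Pcsk5, -0.37 for Furin, -0.37 for Pcsk6 and -0.46 for Pcsk7, against 0.17 for Pcsk7 with the group means left in. It was 0.09 for Pcsk2, -0.16 for Cpe and -0.08 for Cpd, so that the sign turned for Furin, Pcsk7, Cpe and Cpd. For both Pam and Pcsk5 dehydrated replicate 5 was the lowest dehydrated pool, at 1239.2 and 30.3. The correlation of Pcsk5 without that pool was not computed.

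**Figure D5:**
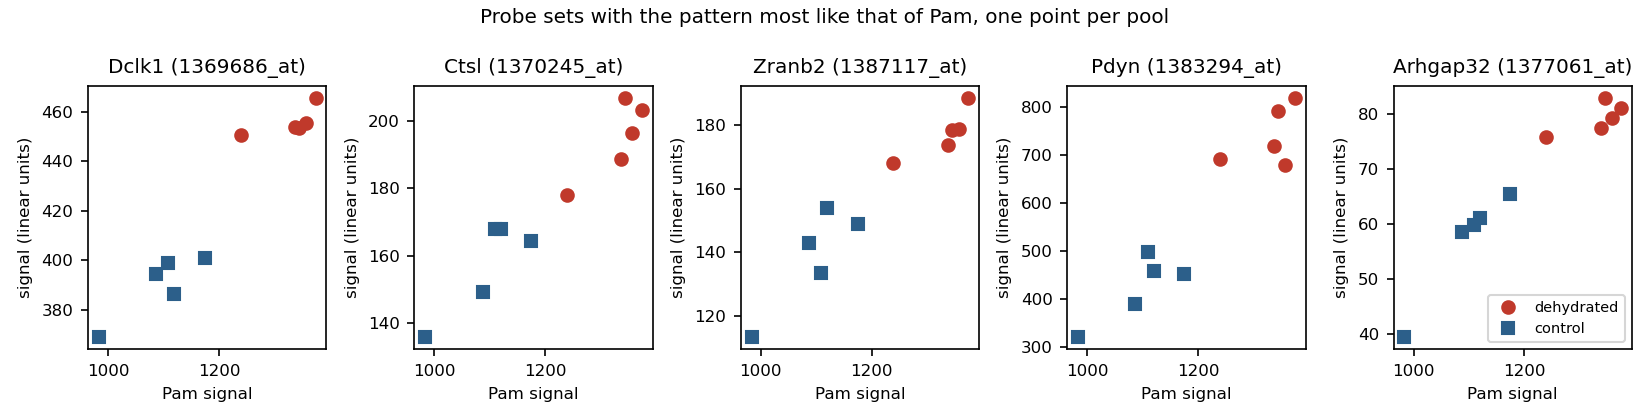
Signal of the 5 probe sets whose pattern was most like that of Pam (y axes, linear units) against the Pam signal (x axes), 1 point per pool, dehydrated as red circles and control as blue squares. The dehydrated pools lie to the upper right in each panel, and control replicate 5 is the lowest point in all 5.

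The ratio of 3 prime to 5 prime signal of the control transcripts differed little between the groups. Its log2 was 1.58 ± 0.22 in dehydrated and 1.41 ± 0.21 in control arrays for Gapdh (exact two-sided permutation p = 0.254, n = 5 each) and 2.84 ± 0.17 and 2.70 ± 0.33 for beta-actin (exact permutation p = 0.516), where 0.0079 is the smallest p that 252 assignments allow. Control replicate 5, the pool with the lowest Pam signal, had the lowest of both ratios.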

How the data were processed

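Per the submitters' processing notes, the authors used GCOS 1.2 to turn each scan into the deposited intensity of every probe set, on a linear scale. Which signal algorithm was run, and the detection calls, are not given in the sources used here. Each array had a trimmed mean of 100, so the authors had scaled the arrays. Signals were taken as log2(signal + 3.72), the pseudocount being 0.1 of the median of the array medians. Probe sets with a mean signal under the 40th percentile (24.1) and 57 control probe sets were left out, which left 18629. Groups came from the source names, and replicates were numbered in accession order. Dehydrated pools were set against control pools by lmFit and eBayes with a trend (limma 3.58.1 in R 4.3.3). Tests were two-sided, p-values were adjusted by Benjamini-Hochberg over all tested probe sets, and the threshold was 0.05; adjusted p and intervals in the text are from this fit unless stated. The fit was tested on simulated data. The number of arrays limits the precision. Member symbols were those of the platform annotation; symbols of other genes were updated through Entrez identifiers for 20758 of 20826 single-symbol probe sets. Promoters were RefSeq's, in GRCr8, and were found for 7 of the 10 genes. The members and lists were chosen with earlier results of these data known. Named genes were all enzyme probe sets, up to 4 genes of each list with the smallest p, and the 5 genes most like Pam. For the precursors, these 4 came from each list before pooling, and Apln was named in addition. The precursor genes had been listed as amidated or not, and were pooled because some give peptides of both kinds. As first listed, 0 of 12 tested amidated precursors and 2 of 11 tested others (Pdyn and Vgf) rose in limma, beside 0.397% of all tested probe sets. Alternatives were other filters, pseudocounts, scalings and variance models, array weights and leaving out each array in turn.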

Additional observations from a re-analysis of the deposited data

Results flagged for a closer look

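In 88 groups of 5 pools the highest or lowest pool was set against the others, and 11 groups had 1 pool far from the rest; chance gives about 1 in 20. Among the enzymes there were 5 such groups of 28. Pam (1367687_a_at) had 1239.2 in dehydrated replicate 5, below the 1337.4 to 1374.4 of the other dehydrated pools. Pcsk5 had 30.3 in dehydrated replicate 5 (1392773_at) where the others had 51.1 to 53.9. The dim probe sets of Pcsk5 had 3.3 in control replicate 2 (1393467_at, others 11.7 to 15.1) and 2.4 in dehydrated replicate 1 (1388214_at, others 0.7 to 1.0), and that of Cpd had 7.0 in control replicate 4 (others 0.7 to 1.4). Among related genes, Cpn1 had 41.2 in dehydrated replicate 1 (others 26.9 to 30.8), Cyb561 539.6 in dehydrated replicate 5 (others 463.2 to 483.6) and Ece2 358.7 in dehydrated replicate 5 (others 251.0 to 274.9). Control replicate 5 was low for Pgpep1, at 205.1 (others 272.4 to 293.7), for Arhgap32, at 39.5 (others 58.7 to 65.6), and for the log2 ratio of 3 prime to 5 prime Gapdh signal, at 1.05 (others 1.42 to 1.54).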

How the results depend on the processing

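No paired analysis was run. Per the design text the pools came from different animals, and the labels give neither replicate numbers nor pairs. Pam kept its direction in all 20 alternatives and its call in 12. Its difference was 0.28 without a filter (limma, adjusted p = 0.0800 over 31042 probe sets) and 0.28 without the variance trend (adjusted p = 0.155). Its unadjusted p in limma was 2.3e-04 without a filter, against 1.2e-04 as reported. The cause of either loss was not tested. With 1 array left out the Pam difference ran from 0.24 to 0.31. The count of changed enzyme probe sets was then 0 without a filter, 0 without the trend, and 0 to 1 with 1 array left out. The count over all probe sets was 64 without a filter, 45 without the trend, 201 with array weights, 289 without both arrays that stood apart (chosen after seeing the data) and 46 to 148 with 1 array left out, where 46 was without dehydrated replicate 3. The count in the related lists was 6 with array weights, 5 without both arrays and 2 to 3 with 1 array left out. Array weights added calls of Ctsl, Avp, Cck and Sst, and leaving out both arrays those of Avp, Oxt and Pgpep1 (log2 -0.43). No enzyme other than Pam passed in any alternative, and of their 159 differences (8 probe sets over the alternatives) 20 had the other sign. Avp had 8 calls in 20 alternatives. Small differences turned under quantile normalization for Pcsk5 (-3.2e-04), Cpe (-0.0643) and Scg5 (-0.0095), with array weights for Pcsk2 (-0.0136) and Pcsk5 (-0.0289), and without both arrays for Pcsk5 (-0.0587) and Pacs2 (0.0094). With 1 array left out Pcsk2 ran from -0.0742 to 0.0996, Pcsk5 from -0.0471 to 0.149, Pcsk6 from -0.0261 to 0.0809, Cpd from -0.0427 to 0.0814 and Pacs2 from -0.0816 to 0.0201.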
